A study of Homo sapiens and synthetic construct with 14 samples.

Results

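The windows described here are 200-base stretches of the human genome that raised reporter RNA in the B-cell line GM12878. In 3 other human cell lines their average stayed at or under a low limit. That limit allows a small rise, and higher values beside single enhancers. A reporter library called WGREST (whole-genome REST) carried them beside 5 enhancers, named En02, En09, En11, En19 and En21. They were chosen by their own measured values. For each construct (a window beside 1 enhancer) the log2 ratio of summed RNA counts to summed plasmid counts was taken, with 1 added to each sum, and the median of the random elements beside the same enhancer in the same line was subtracted. The mean of this value over the 5 enhancers is called activity here, and 0 is the level of a typical random element. A window belonged to the set where its activity was at least 1 in GM12878 and at most 0.5 in each of HepG2, K562 and SK-N-SH, and where every one of its 5 constructs had 20 or more plasmid counts on average. The library held 12760 native windows with counts, 11462 of them were measured beside all 5 enhancers, and 125 met the limits, which is 1.09% of those measured.

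The study used MPRAduo, a reporter assay run on many plasmids at the same time, where barcodes count the RNA made from plasmids that carry an enhancer together with a second element. The WGREST plasmid pool was electroporated into GM12878, a lymphoblastoid line made by transforming B cells with Epstein-Barr virus, into HepG2, a liver cancer line, into K562, a chronic myeloid leukaemia line, and into SK-N-SH, a neuroblastoma line. After 24 hours the GFP messenger RNA was captured, and barcodes were counted in 4 RNA libraries per line and in 4 plasmid libraries that all lines share. No line received a treatment other than the plasmid, and the series text calls the 4 libraries biological replicates.

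REST is a repressor that binds a DNA site called RE1 and keeps neuronal genes silent outside neurons. It recruits corepressor complexes that remove activating marks from chromatin. A native window in this library is named either as holding an RE1 motif or as having no motif. A window placed beside an enhancer can lower the reporter, as a silencer does, leave it alone, or raise it, as a second enhancer does. Enhancers are known for working in some cell types and not in others, because they need the transcription factors that those cells make.

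RNA libraries held 50184575 to 94912250 barcode counts and plasmid libraries 35194052 to 54483871. RNA counts correlated less between libraries in GM12878 (r 0.812 to 0.865 between pairs, across constructs) than in HepG2 (0.913 to 0.948), K562 (0.977 to 0.984) or SK-N-SH (0.980 to 0.984). Across all native windows the median SD of activity over the 4 libraries was widest in GM12878, at 0.32, against 0.22 in HepG2 and 0.14 in both K562 and SK-N-SH. Coordinates are copied from the names of the elements, and the sources used here name no genome build. They are not those of build hg38: the named reference base matched hg38 at 24.5% of 3828 alternate-allele elements, and 2 of the 125 windows would lie past a chromosome end. No sequence, motif search or gene annotation is therefore given for these windows.

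Most GM12878-only windows had no RE1 motif. Of the 125, 110 were no-motif windows and 15 were motif windows, although motif windows made up 7511 of the 11462 measured. The set thus took 2.78% of measured no-motif windows and 0.20% of measured motif windows. The same limits turned to another line took 294 windows for HepG2, 73.1% of them without a motif, 171 for K562, 43.9% without a motif, and 53 for SK-N-SH, 58.5% without a motif. Among designed controls, 3 of 721 random elements (0.416%), 0 of 415 negative controls and 0 of 86 positive controls fell within the GM12878-only limits. An activity of at least 1 in GM12878, whatever the other lines, was read for 60 of the 721 random elements (8.32%). These shares describe what the limits selected and carry no test.

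Activity confined to GM12878 was uncommon among windows active there. Of 1283 native windows with an activity of at least 1 in GM12878, 925 (72.1%) reached 1 in all 4 lines, and the 125 made up 9.74%. The other lines each shared a similar part of the 1283: HepG2 reached 1 in 1009 of them, K562 in 1016 and SK-N-SH in 1023.

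In GM12878 the 125 windows had a median activity of 1.59, with quartiles of 1.25 and 1.99 and a range of 1.01 to 4.71. On a linear scale the median window gave 3.01 times the RNA of a random element. Of the set, 58 windows lay between 1 and 1.5, 37 between 1.5 and 2, 28 between 2 and 3, and 2 above 3. All 30 windows at or above 2 were no-motif windows. The 15 motif windows spanned 1.04 to 1.88 with a median of 1.40, and the 110 no-motif windows spanned 1.01 to 4.71 with a median of 1.64.

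The set's level was similar in the 4 GM12878 libraries. The median over the set was 1.58, 1.54, 1.63 and 1.62 in GM12878 libraries 1 to 4. Of the 125 windows, 93 were at or above 1 in every one of the 4 libraries. The same libraries chose the windows at that limit, so these medians and this count only describe the set. In 123 of 125 windows the lowest GM12878 library lay above the highest of the 12 libraries of the other lines, where 8.45% of all native windows had that order; the limits of the set use the same values, so nothing is read from this share. The exceptions were chr16:14448586-14448786, whose lowest GM12878 library was 0.39 against 0.67 for the highest other library, and chr6:130747560-130747760, at 0.46 against 0.57. Within the set the median SD over libraries was widest in HepG2, at 0.30, against 0.14 in GM12878, 0.14 in K562 and 0.15 in SK-N-SH. The set's median in the HepG2 libraries ran from -0.20 in library 1 to -0.47 in library 4.

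A window chosen without one GM12878 library can be looked up in that library, which then played no part in its choice. The 125 windows chosen without library 1 had a median activity of 1.58 in library 1, and 110 of them reached 1 there, against 11.3% of all native windows. The 128 chosen without library 2 had a median of 1.48 there, and 103 reached 1 (all native windows 10.9%). The 118 chosen without library 3 had a median of 1.66, and 112 reached 1 (all native windows 11.6%). The 120 chosen without library 4 had a median of 1.65, and 113 reached 1 (all native windows 11.3%). Between 80.5% and 94.9% of the windows thus stayed at or above the limit in a library that the choice did not use. A single window fell below 0 there, to -0.70 in library 2. The sets so chosen shared 124, 124, 117 and 118 windows with the 125. The plasmid libraries, constructs and barcodes were common to both sides of this comparison. It therefore describes agreement between GM12878 libraries and is no test of the windows.

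The strongest window was chr3:98275149-98275349, a no-motif window with an activity of 4.71 in GM12878, about 26.1 times the level of a random element. Its GM12878 libraries read 4.77, 4.49, 4.71 and 4.94. The 4 HepG2 libraries read -0.13, 0.10, 0.36 and -0.20, those of K562 -0.03, -0.77, -0.31 and -0.04, and those of SK-N-SH 0.28, -0.11, -0.17 and 0.05. All 12 other libraries therefore lay near the random level, at least 4.13 log2 units below the lowest GM12878 library. Beside En02, where 27 barcodes carried it, the window gave 2135, 1694, 3076 and 2304 RNA counts in GM12878. The same construct gave HepG2 counts of 28, 24, 14 and 12, K562 counts of 6, 0, 3 and 8 and SK-N-SH counts of 13, 6, 7 and 10, from plasmid counts of 119, 97, 118 and 100. Raw counts beside En02 also carry a difference between lines in the enhancer itself: the median random element there stood at -2.0 in GM12878, -2.91 for HepG2, -4.0 for SK-N-SH and -4.30 for K562, as the log2 ratio of RNA to plasmid. Activity has that difference taken out.

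Next came chr11:35148098-35148298, a no-motif window at 3.84 in GM12878, with libraries at 3.85, 3.63, 4.04 and 3.96. It stood at -0.47 for HepG2, -0.07 for SK-N-SH and -0.91 for K562. Beside En19, from plasmid counts of 375, 236, 426 and 246, it gave 6695, 6570, 6756 and 7483 counts in GM12878 and 22, 14, 20 and 18 in K562. The window was thus at the random level or below it in the 3 other lines. The following windows in order were chr1:183880558-183880758 at 2.91 (libraries 2.92, 2.86, 2.99 and 3.0) and chr1:150132665-150132865 at 2.90 (libraries 2.86, 2.86, 3.08 and 2.92). Their library values overlap, so their order is not settled.

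The fifth to the tenth window lay within 0.13 of each other. They were chr16:57422392-57422592 at 2.75, chr19:44258020-44258220 at 2.71, chr2:8628339-8628539 at 2.65, chr3:4892076-4892276 at 2.64, chr2:213880583-213880783 at 2.63 and chr6:91183620-91183820 at 2.63. All 6 were no-motif windows, and their library ranges overlap. Their closeness in GM12878 follows from taking adjoining ranks there. No such choice held their values together in the other lines, so the wider spread there is only described. The window chr16:57422392-57422592 stood at 0.36 in HepG2 and at -1.25 in K562 and -1.26 in SK-N-SH, while chr6:91183620-91183820 ran the other way, at -0.41 for HepG2, 0.46 for SK-N-SH and 0.16 for K562. The window chr2:213880583-213880783 was below 0 in all of them, with K562 lowest at -1.35, SK-N-SH at -0.92 and HepG2 at -0.68. Barcode support was uneven: chr3:4892076-4892276 had 42 barcodes over its 5 constructs and only 4 beside its thinnest enhancer, against 318 and 31 for chr2:8628339-8628539.

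The rise in GM12878 differed with the enhancer beside the window. The log2 ratio relative to random, taken beside a single enhancer, had a median over the 125 windows of 2.73 beside En02, 2.37 beside En11 and 2.12 beside En19, but 0.57 beside En09 and 0.58 beside En21. It reached 1 in 122 windows beside En02, 118 beside En11 and 120 beside En19, against 25 beside En09 and 22 beside En21. Thus 85 windows reached 1 beside exactly 3 enhancers, 14 did so beside all 5, and 99 were above 0 beside all 5. The limits act on the mean of these 5 values, and shares over all native windows beside each enhancer are not given here. These counts therefore only describe the set. En02 and En11 were the weak enhancers of the library in GM12878 (median random element at -2.0 and -1.54 as log2 RNA over plasmid), En09 stood at 0.06, En19 at 0.64 and En21 at 0.99. The windows thus rose most beside the weak enhancers, and also beside En19, which was stronger than En09.

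The 925 windows active in all 4 lines showed a flatter profile at nearly the same overall level in GM12878. Their median activity there was 1.58, against 1.59 for the GM12878-only windows. Beside single enhancers their medians were 1.99 (En02), 1.76 (En11), 1.54 (En19), 1.58 (En09) and 1.49 (En21). Both sets were chosen on the mean of these values, so the contrast is a description and was not tested. In the other lines the 925 windows rose most beside En02 and En11, with medians in K562 of 4.48 and 3.52 and in SK-N-SH of 3.66 and 3.03.

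Across the 125 windows, values beside En02 and En11 went together (Pearson r = 0.781), as did values beside En09 and En21 (r = 0.776). The other pairs of enhancers gave r of 0.427 to 0.672. The points share libraries and the plasmid pool, and the limits act on their mean, so these coefficients only describe the set. The motif window chr10:1720525-1720725 was the only one of 125 whose mean beside En09 and En21 exceeded its mean beside the other enhancers. It read 1.76 beside En09 and 1.61 beside En21, against 0.41 beside En02, 1.05 beside En11 and 0.67 beside En19.

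In the other lines the windows were mostly at or under the random level. Median activity was -0.17 for HepG2, -0.21 for SK-N-SH and -0.27 for K562. The lowest window of each line read -2.48 for K562, -1.93 for HepG2 and -1.85 for SK-N-SH. Of the 125, 54 were below 0 in all 3 lines, 13 were at or above 0 in all 3, and 29 were at or below -1 in at least 1. Only 3 were at or below -1 in all 3. K562 had 89 windows below 0, HepG2 and SK-N-SH 79 each, where 49.7%, 49.7% and 54.4% of all native windows were below 0. The upper limit of 0.5 removes higher values, so a larger share below 0 follows from the choice.

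By enhancer, the lowest medians in the other lines lay beside En09 and En21, where the rise in GM12878 was small. The medians in K562 were -0.71 beside En09 and -0.54 beside En21, against 0.18 beside En02 and 0.04 beside En11. In SK-N-SH they were -0.60 and -0.64 against 0.30 and 0.04, and in HepG2 -0.40 and -0.32 against 0.14 and 0.01. En19, beside which the rise in GM12878 was large, also had medians below 0 elsewhere, at -0.31 for K562, -0.20 for SK-N-SH and -0.19 for HepG2. Within the set, activity in GM12878 and activity elsewhere were nearly unrelated (r = 0.04 with HepG2, -0.01 with K562 and 0.03 with SK-N-SH, over 125 windows), in ranges that the limits cut. The 3 other lines went together, with r of 0.558 between HepG2 and K562, 0.562 between HepG2 and SK-N-SH and 0.629 between K562 and SK-N-SH. All lines share the plasmid counts, which enter each value.

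Constructs of the set were somewhat thinner than the library. The 625 constructs had a median of 32 barcodes and a mean plasmid count of 220 at the median, against 43 barcodes and 289 over all native windows measured. In 95 of 125 windows every construct had at least 10 barcodes. RNA counts per construct, summed over 4 libraries, had a median of 2075 in GM12878, 466 for HepG2, 349 for SK-N-SH and 259 for K562. Whether the thinner coverage has a part in the choice was not tested.

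At the GM12878 limit, the windows just inside were chr11:64618740-64618940 at 1.01, chr14:68735014-68735214 at 1.01 and chr6:130747560-130747760 at 1.02. Just outside were chr13:46742585-46742785 at 0.99, chr6:11459322-11459522 at 0.96 and the motif window chr3:123068005-123068205 at 0.96. At the limit of the other lines, chr7:5735153-5735353 (0.49 in HepG2), chr1:172788464-172788664 (0.49 in SK-N-SH) and chr4:3079619-3079819 (0.49 in SK-N-SH) were just inside. Just outside were chr17:39738998-39739198 (0.50 in K562), chr6:98117203-98117403 (0.51 in K562) and chr16:89070998-89071198 (0.52 in K562), whose GM12878 activities were 1.67, 1.77 and 1.43. These gaps are smaller than the SD between libraries, so windows on both sides of a limit differ by less than the measurement error.

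The windows lay on 22 chromosomes. Chromosome 6 held 14, chromosome 2 held 11 and chromosome 10 held 10, which is 2.07%, 1.17% and 1.77% of the native windows measured there. Chromosomes 17, 19 and 22, which held 1427 measured native windows together, gave 5 of the set. Of all pairs within the set, 6 started within 200 kb of each other. The closest, chr8:128315169-128315369 (1.29 in GM12878) and chr8:128320035-128320235 (1.61), started 4866 bases apart. A pair on chromosome 6, chr6:138229923-138230123 (a motif window, 1.04 in GM12878) and chr6:138248870-138249070 (no motif, 1.86), started 18947 bases apart. A pair on chromosome 12, chr12:92896779-92896979 (1.60) and chr12:92945800-92946000 (1.83), started 49021 bases apart. The window chr11:35148098-35148298, second in the whole set, lay 146037 bases from chr11:35294135-35294335, which read 1.13.

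In the set, 6 windows had another measured native window within 1000 bases, and none of these neighbours met the limits. The window chr6:32997279-32997479 read 2.60 in GM12878, while chr6:32997063-32997263, which ends 16 bases before it, read 0.28. Likewise chr10:72115240-72115440 read 1.05 and its neighbour 23 bases away, chr10:72115017-72115217, read 0.33. In both cases the adjacent window stayed below the limit of 1. Other neighbours were active in more lines: chr5:52856413-52856613, a motif window 154 bases from chr5:52856767-52856967, read 2.38 in GM12878, 2.49 for HepG2, 3.73 for SK-N-SH and 3.76 for K562. The neighbour of chr7:55602042-55602242 (2.20 in GM12878), 647 bases away, read 1.04 in GM12878 and 0.65 in K562. The neighbour of chr1:172788464-172788664, 169 bases away, read 1.45 in GM12878 and 1.14 in HepG2. The neighbour of chr10:112601700-112601900, 706 bases away, read -0.41 in GM12878.

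The values above chose the windows and so cannot test them. Other oligos of the same loci played no part in the choice, and these were tested. The library held scrambled versions of 14 of the 15 motif windows, 10 alternate-allele versions at 8 of them, and 1 native window that overlaps a no-motif window of the set by 1 base. The sources used here do not say how the sequence was scrambled. The other 109 no-motif windows had no such partner. Of the partners, 13 scrambled and 9 alternate-allele versions were measured beside all 5 enhancers.

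The scrambled versions were also higher in GM12878 than in the other lines. All 13 passed the test of GM12878 against the mean of the 3 other lines (limma on element means, adjusted p at most 0.000608), where 13.9% of the 5199 scrambled elements in the library and 19.6% of all 21378 elements passed in that direction. The differences ran from 0.81 to 1.96 log2 units with a median of 1.47. In 12 of 13 GM12878 was also past the threshold against each line taken singly, against 5.25% of all scrambled elements and 8.63% of all elements. In all 13 the lowest GM12878 library lay above the highest of the 12 other libraries, against 4.39%.

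Against the median random level in GM12878, all 13 scrambled versions were higher (limma, adjusted p at most 0.0489), where 27.4% of all scrambled elements were. The activities of the 13 ran from 0.30 to 1.5 with a median of 1.08, and the native windows they came from had a median of 1.40. The test leaves out the spread among random elements, whose activity in GM12878 had quartiles of -0.38 and 0.35. The lowest scrambled version, at 0.30, lay inside those quartiles. Of the 13, 8 reached 1 in GM12878 (10.9% of all scrambled elements did) and 5 met all 4 limits of the set (0.308%). The number higher than random was 1 for HepG2, 0 for K562 and 5 for SK-N-SH. Over all elements the corresponding shares were 38.0%, 43.8% and 41.6%.

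The highest scrambled versions nearly equalled or exceeded the native windows. The scrambled version of chr6:138229923-138230123 read 1.43, 1.68, 1.54 and 1.45 in the 4 GM12878 libraries, with an activity of 1.5 against 1.04 for the native window. It was higher in GM12878 than in the other lines by 1.47 ± 0.11 (SE; limma adjusted p = 9.77e-09). That of chr6:32430388-32430588 read 1.35, 1.17, 1.72 and 1.75, with an activity of 1.5 against 1.48, and the difference between lines was 1.89 ± 0.18 (SE; limma adjusted p = 2.3e-07). That of chr5:75885951-75886151 read 1.32, 1.35, 1.42 and 1.73, with an activity of 1.49 against 1.61. In these loci the 4 libraries of the scrambled version all stayed above 1. The native values were picked for being high, so a native window above its partner is no measure of what scrambling does.

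A further pair of scrambled versions lay near the native level. That of chr19:2608138-2608338 had an activity of 1.43 against 1.84, with libraries at 0.92, 1.58, 1.55 and 1.65. That of chr10:121226291-121226491 had 1.27 against 1.20, with libraries at 1.18, 1.59, 1.28 and 1.1. The lowest was that of chr18:54745098-54745298, at 0.30 against 1.41, with libraries at 0.46, 0.39, 0.05 and 0.39. The scrambled version of chr1:23903833-23904033 read 0.87 against 1.88. Every one of these partners was still higher in GM12878 than in the mean of the other lines.

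Alternate-allele versions carry a single changed base, written as the reference base, its position counted from the window start as the element names give it, and the alternate base. Of the 9 measured, 8 were higher in GM12878 than in the mean of the other lines (limma; 22.4% of the 3495 alternate-allele elements were) and also against each line taken singly (10.4%). In these 8 the lowest GM12878 library lay above every library of the other lines (8.10%). The same 8 were higher than random elements in GM12878 (21.6% of all alternate-allele elements were). Their GM12878 activities ran, over all 9, from 0.14 to 2.23 with a median of 1.55. Of the 9, 5 reached 1 (9.41% of all alternate-allele elements did), and those 5 met all 4 limits of the set (0.143%).

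At 3 loci the alternate alleles read above 1 in GM12878. At chr11:94829486-94829686, which read 1.84, the T94C version read 2.05 (libraries 2.20, 1.75, 1.96 and 2.23) and the C125T version 2.23 (libraries 2.39, 2.32, 2.17 and 2.12). C125T gave the widest difference between lines of any partner, 2.91 ± 0.18 log2 units (SE; limma adjusted p = 1.77e-09). At chr19:2608138-2608338, which also read 1.84, C90T read 1.69 (libraries 1.77, 1.64, 1.72 and 1.79) and T100G 1.55 (libraries 1.58, 1.33, 1.5 and 1.88). At chr5:75885951-75886151, which read 1.61, T113C read 1.63 (libraries 1.27, 1.66, 1.95 and 1.66). All 20 library values of these 5 versions were above 1.

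The other 4 measured alleles read below 1 in GM12878 and lower than their native windows. C90T and T100G were also lower than theirs. No allele was tested against its native window, and the native values were picked for being high. At chr6:32430388-32430588 C120T read 0.66 against 1.48, with libraries at 0.87, 0.69, 0.53 and 0.64, while the scrambled version of that window stayed at 1.5. At chr2:71448004-71448204 C85G read 0.74 against 1.25, with libraries at 0.21, 0.95, 1.02 and 0.60, and the scrambled version read 0.89. At chr10:121226291-121226491 G116A read 0.85 against 1.20. These 3 were still higher in GM12878 than in the other lines (limma adjusted p of 0.00033, 9.57e-07 and 2.27e-08).

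At chr6:138229923-138230123 the T117A version read 0.14 against 1.04 for the native window. Its libraries read -1.15, 0.26, 0.26 and 0.14, so library 1 stood apart. It did not pass the test against random elements (limma adjusted p = 0.753) or the test between lines (difference 0.04 ± 0.24, SE; adjusted p = 0.905). Without library 1 the difference was 0.39. The scrambled version of the same window read 1.5. The native window itself was the lowest motif window of the set, so a lower partner can also arise from the way it was chosen. The alternate allele A112G of chr5:52856767-52856967 and the scrambled version of chr7:5735153-5735353 were not measured beside all 5 enhancers. The motif window chr6:26234325-26234525 (1.40 in GM12878, 0.10 in HepG2, -0.04 in K562, 0.13 in SK-N-SH) had no partner.

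The partners repeated the pattern across enhancers. Over the 22 scrambled and alternate-allele versions, the median log2 ratio relative to random in GM12878 was 2.09 beside En02, 1.71 beside En11 and 1.72 beside En19, against 0.37 beside En09 and 0.41 beside En21. Construct by construct (edgeR), 21 of 22 were higher than random beside En19, where 23.3% of all constructs were. Beside En02 16 of 22 were higher (12.0% of all constructs) and beside En11 14 of 22 (9.13%). Beside En09 7 of 22 were higher (22.6%) and beside En21 2 of 22 (19.3%). Beside En09 and En21 the partners' counts were therefore near the background, and beside the other 3 enhancers above it.

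The exception among the native windows, chr10:1720525-1720725, kept its pattern in its scrambled version. By the comparison of means it was not the only such partner. The T117A version of chr6:138229923-138230123 also had a higher mean beside En09 and En21 (0.24 and 0.18). Beside En02, En11 and En19 it read 0.87, -1.03 and 0.43. Its order of means rests on the value beside En11, which was imprecise (edgeR -1.22 ± 0.92 SE, adjusted p = 0.32). Beside En02 and En19 T117A read higher than beside En09 and En21. The scrambled version of chr10:1720525-1720725 read 1.97 beside En09 and 1.81 beside En21, against 0.29 beside En02, 0.87 beside En11 and 1.23 beside En19. In edgeR its construct was above random by 1.79 ± 0.06 beside En09 (SE; adjusted p = 8.13e-09) and by 1.54 ± 0.06 beside En21 (adjusted p = 4.78e-08), but not beside En02 (-0.07 ± 0.26, adjusted p = 0.853). It was also the scrambled version with the highest activity in SK-N-SH, at 0.99, and the only one of 13 that was not past the threshold against SK-N-SH taken singly (limma adjusted p = 0.422).

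The difference between lines appeared beside every enhancer, unlike the rise over random. Of the 22 partner constructs beside each enhancer, GM12878 RNA exceeded the mean of the other lines (edgeR) in 21 beside En02 (40.1% of all constructs), 20 beside En09 (43.0%), 18 beside En11 (25.9%), 22 beside En19 (49.3%) and 21 beside En21 (33.1%). The median difference was 2.61 beside En02, 2.40 beside En11 and 2.44 beside En19, and 1.11 beside En09 and 1.09 beside En21. These sizes and counts rest on scaling to summed random counts. Under it 38.4% of all constructs were higher in GM12878, against 21.9% when scaled on the median random element. Sizes beside each enhancer under that other scaling are not given here.

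Over all 115 partner constructs, the 5 of the overlapping window included, 103 were higher and 0 lower in GM12878 than in the other lines (edgeR; all constructs 38.4% higher and 18.9% lower). Against random elements in GM12878, 60 were higher and 7 lower (all constructs 17.3% and 25.3%). The split over all constructs moved with the scaling. Scaled on the median random element in place of the summed random counts, 99 partner constructs were higher and 3 lower between lines (all constructs 21.9% and 30.3%), and 70 higher and 3 lower against random (24.0% and 15.9%). With TMM scaling over all constructs the counts were 79 and 11 between lines (36.7% and 35.6%), and 65 and 13 against random (33.9% and 31.5%). With DESeq2, 105 partner constructs were higher between lines (39.7% of all constructs) and 65 higher than random (19.5%), and with the library number as a block 102 were higher between lines (35.1%). The partners were mostly higher in GM12878 under each of these settings.

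The overlapping native window behaved differently from its partner in the set. The no-motif window chr6:138248870-138249070 read 1.86 in GM12878, and the window that shares its last base read -0.30, with libraries at 0.05, -0.61, -0.47 and -0.31. In HepG2 that neighbour was higher, at 0.47. Its GM12878 level was lower than the mean of the other lines (difference -0.34 ± 0.10 SE, limma adjusted p = 0.0102), as 37.8% of all elements were. Taken singly, only the difference from HepG2 passed (-0.77, limma adjusted p = 0.000104). The differences from K562 (-0.17, limma adjusted p = 0.26) and SK-N-SH (-0.09, limma adjusted p = 0.58) did not.

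A further readout came from the benchmark library, a separate pool tested in GM12878 in both orders: the element preceded the enhancer in run1 and followed it in run2. Its element named REST has the coordinates of chr19:2608138-2608338, the motif window with an activity of 1.84. It stood beside 20 enhancers in each run. In both benchmark tables the authors' deposited log2 fold change runs from the columns headed cDNA to those headed plmd (r with the ratio of cDNA to plmd counts was -0.993 and -0.999 across pairs), so the columns headed plmd were taken as RNA. In that direction the pair was higher than random elements beside the same enhancer in 10 of 20 cases in run1 (edgeR; 5.66% of all pairs) and 17 of 20 in run2 (22.7%), and lower in 0 of 20 in either run (5.49% and 18.5% of all pairs were lower).

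In run1 the differences ran from -0.31 to 2.32 log2 units with a median of 0.86, and 17 of 20 were above 0. In run2 they ran from 0.15 to 3.18 with a median of 1.79, all above 0. Both orders thus raised the reporter beside many enhancers, on the direction used. Beside the enhancers of the genome-wide library, run2 gave 2.43 ± 0.13 beside En02, 3.18 ± 0.24 beside En11 and 2.07 ± 0.13 beside En19 (SE), against 0.84 ± 0.08 beside En09 and 0.15 ± 0.22 beside En21. That order resembles the genome-wide values of this window, which were 2.92, 2.88 and 2.23 against 0.57 and 0.58. In run1 the same enhancers gave 0.72, 0.83 and 0.84 against 0.17 and -0.18, none of them past the threshold. The direction of the column headings turns all of these signs.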

How the data were processed

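Per the file headers, each deposited table gives 1 line per construct with unnormalized barcode counts for 4 RNA libraries per line and 4 plasmid libraries whose columns are identical in the 4 tables. The deposited mean plasmid signal, equal to the mean of those columns, set the minimum of 20. The authors' deposited log2 fold change was used only for the direction of the benchmark. The sources used here name neither the read processing before deposit nor the genome build. Of 139325 rows for each cell line, 19325 that repeat a native window and 3169 without counts were dropped, which left 116831 constructs of 23789 elements.

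The windows, lists and tests were chosen with earlier results of these data known. Named windows were the 10 highest in GM12878, the 3 nearest each side of a limit, every window with an alternate-allele or benchmark partner and the 5 with the highest scrambled partner; others were chosen after their values were seen. A planned search for factor motifs was not made, because no genome of the files' build was used here.

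For constructs the main test was edgeR's (version 4.0.16) quasi-likelihood test, with libraries scaled on summed random elements beside the same enhancer. Element means over 5 enhancers, on log2(count + 1) minus the random median per library, were tested with limma 3.58.1, so enhancers were not counted as replicates. All constructs (112451) or elements (21378) were fitted, with Benjamini-Hochberg adjustment and a threshold of 0.05. P-values measure the spread between the 4 libraries, and the plasmid pool is common to all lines. Random elements enter the tests only as a median or a sum, so the p-values leave out the spread among them. Reads are not molecules. On simulated data of 112451 constructs for GM12878 RNA against plasmid, edgeR recovered 88% to 90% of changes of 1 log2 unit and 100% of 2. The spread between libraries and the plasmid counts used in the simulation are not given here. The shares therefore describe the simulated constructs only, and recovery among measured constructs was not tested. They do not carry over to partner constructs with a wide SE in GM12878. Beside En11, for example, the SE was 1.29 for the scrambled version of chr2:71448004-71448204 and 0.92 for T117A. A change of 1 log2 unit could be missed there. DESeq2 1.42.0 was an alternative. Scripts ran in R 4.3.3 (data.table version 1.17.8) and Python 3.11.15 (numpy 2.4.6, pandas 2.3.3).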

Additional observations from a re-analysis of the deposited data

Results flagged for a closer look

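Of 67 groups of 4 libraries examined (the 10 highest windows in each line, each partner in GM12878, and the set's median in each line), 4 held a library far from the other 3; about 5% would by chance. GM12878 library 1 was low for the T117A version of chr6:138229923-138230123 (-1.15, the others 0.14 to 0.26), for the scrambled version of chr1:23903833-23904033 (0.54, the others 0.86 to 0.92) and for that of chr19:2608138-2608338 (0.92, the others 1.55 to 1.65). GM12878 library 2 was high for the scrambled version of chr10:1720525-1720725 (1.43, the others 1.17 to 1.21).

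For 22 partners the difference between GM12878 and the mean of the other 3 lines passed the limma test itself. For scrambled versions the log2 difference was 1.96 at chr11:94829486-94829686, 1.89 at chr6:32430388-32430588, 1.84 at chr19:2608138-2608338, 1.79 at chr5:75885951-75886151, 1.66 at chr10:64413108-64413308, 1.55 at chr1:23903833-23904033 and 1.47 at chr6:138229923-138230123. It was 1.40 at chr2:71448004-71448204, 1.13 at chr10:121226291-121226491, 1.08 at chr10:1720525-1720725, 0.91 at chr5:52856767-52856967, 0.83 at chr12:27125045-27125245 and 0.81 at chr18:54745098-54745298. For alternate alleles it was 2.91 for C125T and 2.51 for T94C at chr11:94829486-94829686, 2.36 for C90T and 1.76 for T100G at chr19:2608138-2608338, and 2.03 for T113C at chr5:75885951-75886151. It was 1.95 for C85G at chr2:71448004-71448204, 0.96 for G116A at chr10:121226291-121226491 and 0.81 for C120T at chr6:32430388-32430588. The window overlapping chr6:138248870-138249070 ran the other way, at -0.34.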

How the results depend on the processing

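The number of windows ran from 100 (plasmid minimum of 50) to 130 (pseudocount of 10, or without En21) over the alternatives, and from 118 to 128 with a library left out. Which windows met the limits moved more: without En02 93 of the 125 remained among 106, and 94 remained among 107 when random and negative control elements set the zero. For the partners, constructs higher than random in GM12878 numbered 54 to 61 with a library left out and 65 with DESeq2, constructs higher between lines 101 to 104 and 105. Elements higher than random numbered 18 to 21 of 23 over all alternatives, and elements higher between lines 20 to 22. With the library number as a replicate block, 102 constructs were higher between lines in place of 103; deviations of same-numbered libraries of different lines correlated at -0.04 to 0.05, so the numbers do not pair the libraries. In the direction of the column headings 0 of 20 benchmark pairs were higher in run1 and 0 in run2, with medians of -0.86 and -1.79; with a library left out the counts were 9 to 11 and 16 to 17. The difference of T117A between lines turned to -0.046 without En02, -0.017 without En09, -0.081 without En19 and -0.040 without En21. It ran from -0.10 to 0.39 with a GM12878 library left out. Over its alternatives the sign turned in 7, and in 2 it stayed positive without passing. In 1 the difference passed the test as higher in GM12878. The cause was not tested. The difference of the overlapping window no longer passed without En02 or GM12878 library 2. Precision is limited by HepG2, where libraries varied most within the set, by GM12878, where they varied most over all native windows, and by windows with few barcodes.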
